A study of Mus musculus with 9 samples.

Results

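Gene expression was compared between the standard environment (WT_SE) and the enriched environment (WT_EE) in distal-like colon pieces of wild-type mice. Distal-like means here a library with at most 30 raw counts of Slc10a2, the gene of a bile acid transporter, so the libraries were chosen by a measured value. Of the 9 wild-type libraries, 5 met the rule: replicates 1 and 5 of WT_SE, written WT_SE_1 and WT_SE_5, and replicates 2, 4 and 5 of WT_EE. Slc10a2 had 26 and 16 counts in these WT_SE libraries and 3, 4 and 10 counts in the WT_EE libraries. The member just inside the threshold was WT_SE_1 with 26 counts, and the library just outside it was WT_SE_2 with 103 counts. In the other 3 libraries that were not kept, Slc10a2 had between 107 and 117 counts. Because Slc10a2 selected the libraries, its values are a description and support no result below.

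The study asked how housing affects the colon and its microbes in a mouse model of Parkinson's disease, of which only wild-type animals are described here. All were wild-type female C57BL/6N mice aged 12 months, kept in their environment from weaning. WT_SE mice lived 3 to 4 to a standard cage, whereas WT_EE mice lived 8 to a larger cage with extra bedding, changing objects, tunnels and wheels (the labels also write enhanced environment). Each sample was a piece of 2 to 3 cm labelled as upper colon, flushed and snap frozen. Cage size, company, exercise and objects differed together between the groups and cannot be told apart, and the labels do not say which mice shared a cage.

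RNA was read by 3′ messenger RNA sequencing with unique molecular identifiers, so that each count stands for a tagged molecule and does not grow with transcript length. The deposited totals were 383401 and 368997 counts in WT_SE_1 and WT_SE_5, and 295535, 336967 and 426436 counts in WT_EE_2, WT_EE_4 and WT_EE_5. Levels are given as CPM, counts scaled to a common library size with TMM factors over the 5 libraries. A floor of 3 counts equals 6.90 to 10.4 CPM in these libraries: where every library of a group is at or under it, no fitted fold is read, and a bound or a ratio with its counting interval is given. Such intervals cover counting error only. The 100 most counted genes took 4.69 to 5.90% of the counts. Levels in libraries that were not kept are scaled over all 9. Unless stated otherwise, values follow the order WT_SE_1 and WT_SE_5, then WT_EE_2, WT_EE_4 and WT_EE_5.

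The colon changes along its length in transcription factors, hormones and transporters. Posterior Hox genes, Hoxb13 above all, mark its distal end, the hormone gene Insl5 is used by enteroendocrine cells of the distal colon, and Slc10a2 and the neurotensin gene Nts belong to the ileum and the nearer part of the colon. A whole piece holds epithelium, muscle, nerve cells, lymphoid follicles and attached fat in shares that vary with the place of cutting.

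Not every kept library looked distal. Hoxb13, on mouse chromosome 11, had 4 and 56 counts in WT_SE_1 and WT_SE_5 and 45, 24 and 20 counts in the WT_EE libraries. WT_SE_1 was therefore close to the floor, while the other 4 libraries had clear counts. Nts had 26 and 1 counts in WT_SE and 0, 2 and 15 counts in WT_EE, with WT_SE_1 highest and WT_EE_5 next. Hoxb8, a more anterior Hox gene, stood at 77.4 and 16.2 CPM in WT_SE and 10.4, 30.5 and 20.7 CPM in WT_EE, again highest in WT_SE_1. Slc51a, a subunit of another bile acid transporter, showed the same order with 90.4 and 21.6 CPM against 20.8, 48.7 and 27.6 CPM. WT_SE_1 thus goes partly against the label, and among the libraries not kept, WT_EE_3 had 21 counts of Hoxb13 where WT_SE_2, WT_SE_3 and WT_EE_1 had 0. Insl5 was present in all 5 libraries, at 59.4 and 116 CPM in WT_SE and 104, 107 and 115 CPM in WT_EE, lowest in WT_SE_1. The pieces are called distal-like below by their Slc10a2 counts only.

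WT_SE_1 stood apart in further ways. The fat hormone gene Adipoq had 70 and 0 counts in WT_SE and 9, 7 and 0 counts in WT_EE. Its library name ends differently from those of the other 4, an ending it shares only with WT_SE_3 among the 9, and what the ending means is not given in the sources used here. Many counts and genes that rest on WT_SE_1 are therefore given again without it, from a fit where the lone WT_SE_5 is assumed to vary like the WT_EE libraries. All 5 pieces held epithelium with goblet cells by their markers, and that they were colon is taken from the labels. The 11 epithelial genes together made up 3168 to 3753 CPM. Muc2, the main mucin of goblet cells, stood at 803 and 847 CPM in WT_SE and 838, 804 and 637 CPM in WT_EE.

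**Figure D1:**
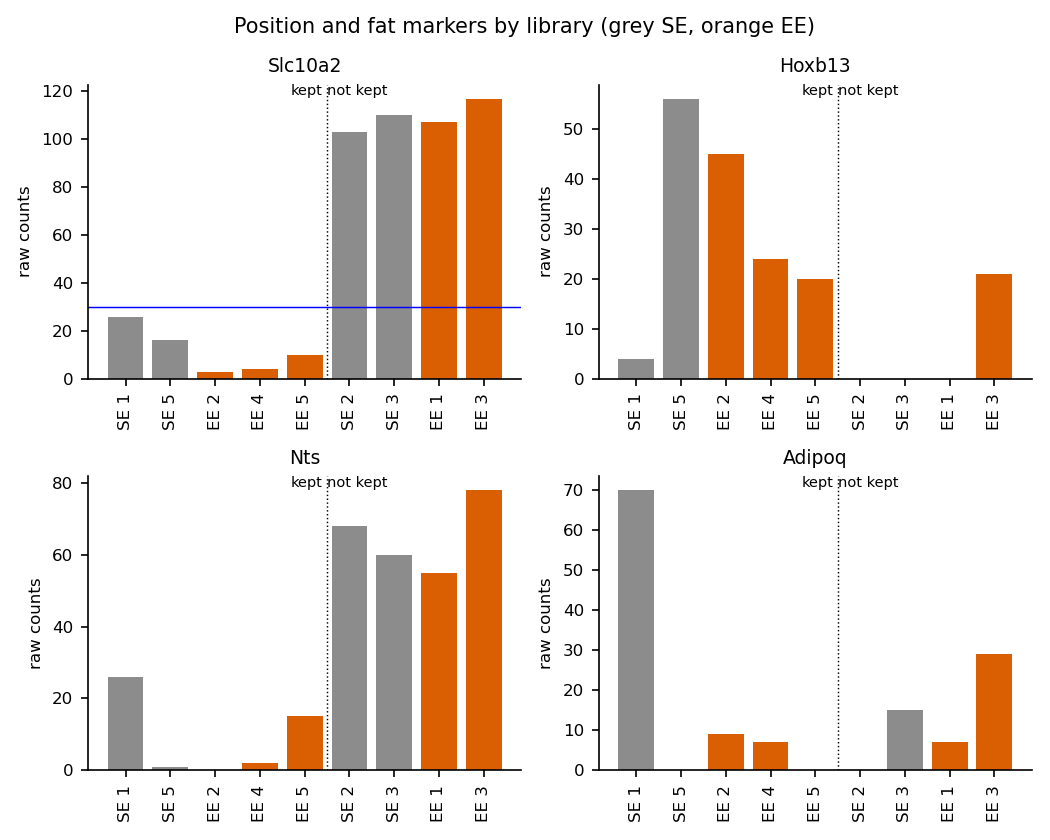
Raw counts of Slc10a2, Hoxb13, Nts and Adipoq (vertical axes) in the 9 libraries, with the 5 kept ones left of the dotted line; the blue line marks 30 counts of Slc10a2. WT_SE_1 (SE 1) has 4 counts of Hoxb13, 26 of Nts and 70 of Adipoq.

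Within the 5 distal-like libraries, 738 of 16266 genes tested were higher in WT_EE and 564 were lower at an unadjusted p under 0.05 (edgeR's quasi-likelihood test), which is 4.54% and 3.47% of the genes tested. Below, called means past this limit, which a figure of the study also names. At a Benjamini-Hochberg adjusted p under 0.05 in the same test, 95 genes passed (0.584%), 68 higher and 27 lower. With filterByExpr 791 genes were called and 10 passed, and with DESeq2 393 and 6. The fit over all genes includes Slc10a2, whose call is not read, and without it 563 and 26 genes were lower. The WT_EE and WT_SE values did not overlap in 1038 of the 1302 called genes, and over all genes tested WT_EE lay wholly above WT_SE in 11.6% and wholly below in 11.4%. A single gene cannot pass by rank alone, since an exact two-sided permutation test over the 10 ways to part 5 libraries into 2 and 3 cannot give a p below 0.2. Without WT_SE_1 the call count was 738, of which 478 higher (3.02% of the genes tested then) and 260 lower (1.64%), and 495 of the 1302 genes kept their call and sign. Leaving out WT_EE_4 gave 809 calls and leaving out WT_EE_5 gave 2148, 1186 higher (7.46%) and 962 lower (6.05%), with 473 past the adjusted limit. Far fewer than 495 of the 1302 genes kept call and sign in all 5 fits that each leave out 1 library. For gene lists below, the counts of calls over these 5 fits are given as a range.

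Over all 9 libraries, 4 WT_SE against 5 WT_EE, 1334 of 17441 genes were called, 751 higher (4.31%) and 583 lower (3.34%). With upper-quartile scaling the balance turned, and 615 were higher and 753 lower. In the main fit 7 genes passed the adjusted limit (0.0401%, edgeR's quasi-likelihood test, Benjamini-Hochberg). No gene passed it with filterByExpr, with 4 CPM in every library, with DESeq2, with limma-voom or without WT_SE_3, 1 passed without WT_SE_1 or without WT_EE_5, and with another library left out 2 to 48 passed. The 5 distal-like libraries are part of the 9, so that the 2 comparisons are not independent and their shared calls are a description. Of the 1334 genes, 644 (48.3%) held in the distal-like libraries, meaning that they were called there with the same sign, against 383 with filterByExpr and 228 with DESeq2. Of the higher genes 423 of 751 held (56.3%), and of the lower genes 221 of 583 (37.9%). A further 655 genes kept their sign without a call, 6 had the opposite sign without a call, and 29 were too low to be tested. Seen from the other side, the 644 genes were 49.5% of the 1302 distal-like calls. In the distal-like fit without WT_SE_1, 280 of the 644 were still called with the same sign.

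A lost call is not by itself a difference between positions, and the difference was tested as the interaction of environment with position over the 9 libraries. That test called 5.96% of the 17441 genes, and 0.183%, or 32 genes, at an adjusted p under 0.05 (edgeR's quasi-likelihood test, Benjamini-Hochberg). Of the 661 genes that were called over all libraries, tested in the distal-like ones and not called there, 38 were among the interaction calls, which is close to the share over all genes. Most lost calls were thus not shown to differ between distal-like and proximal-like pieces. Only 52 of the 1334 genes had a distal-like p over 0.5.

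**Figure D2:**
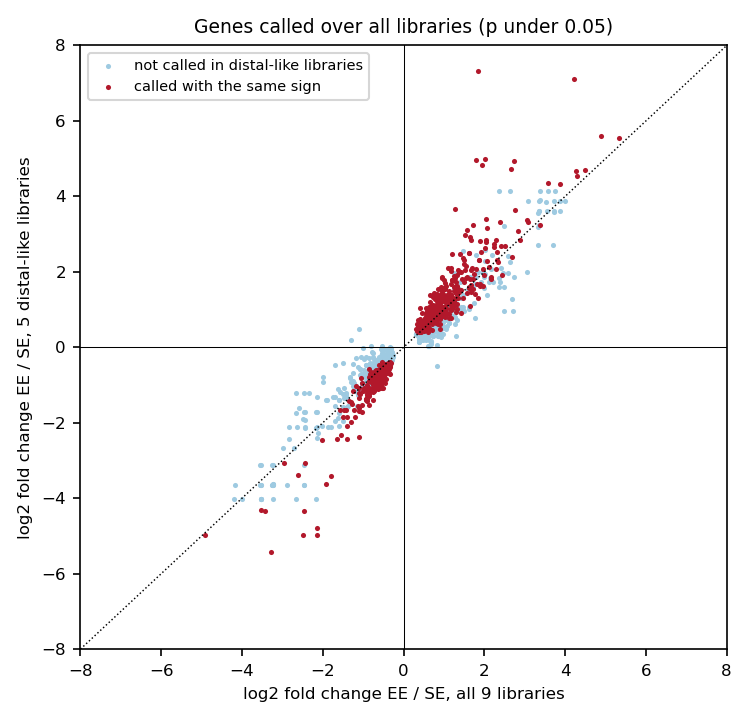
Log2 fold change of WT_EE over WT_SE in the 9 libraries (horizontal axis) and in the 5 distal-like libraries (vertical axis) for the 1305 genes called over all libraries and tested in both. Red points are the 644 that held, pale points the 661 that did not, and nearly all lie in the quadrants of equal sign; the 2 fits share 5 libraries.

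All 7 genes past edgeR's adjusted limit over the 9 libraries held in the distal-like ones, 6 higher and 1 lower in WT_EE. Sdhd (gene ENSMUSG00000000171, chr9:50596357-50603812 in GRCm38), which encodes a membrane anchor of succinate dehydrogenase, stood at 85.2 and 97.4 CPM in WT_SE and 253, 204 and 225 CPM in WT_EE. All 3 WT_EE libraries were more than 2 times as high as either WT_SE library. The log2 fold change was 1.31 ± 0.22, with an adjusted p of 6.41e-06 (edgeR's quasi-likelihood test, Benjamini-Hochberg), and it was 1.22 without WT_SE_1. Here and throughout, ± gives a standard error worked back from the F statistic of that test. Because the test pools information over genes, this error can be far smaller than the spread between a gene's own libraries. The other 7 genes listed for succinate dehydrogenase and its assembly were not called, and the median of the 8 was -0.03 against 0.01 over all genes tested.

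Nr4a2 (ENSMUSG00000026826, chr2:57106830-57124003), a nuclear receptor gene that is switched on early after stimulation, was at 20.7 and 24.3 CPM in WT_SE and 38.1, 91.4 and 71.3 CPM in WT_EE. WT_EE_2 lay nearest to the WT_SE libraries and the groups did not overlap. Its log2 fold change was 1.58 ± 0.39 in the distal-like libraries and 1.68 ± 0.32 over all 9. Rab23 (ENSMUSG00000004768, chr1:33719887-33742564), a small GTPase of vesicle traffic, was at 7.74 and 13.5 CPM in WT_SE and 65.8, 73.1 and 50.6 CPM in WT_EE, a rise of 2.52 ± 0.47. Ptgs2 (ENSMUSG00000032487, chr1:150100031-150108227), the inducible cyclooxygenase of prostaglandin synthesis, had 1 and 2 counts in WT_SE and 12, 11 and 15 counts in WT_EE. Every WT_EE library exceeded both WT_SE libraries, which were at or under the floor, and the ratio was 9.12 with a 95% counting interval of 2.89 to 46.2. Snrpf, a core protein gene of the splicing machinery, was at 49.0 and 29.8 CPM and 79.6, 104 and 140.3 CPM, with a log2 change of 1.47 ± 0.32. It overlaps a gene on the other strand that also has counts, and the strand setting of the counting was not given, so its reads are uncertain.

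The remaining 2 of the 7 are pseudogenes, whose reads may belong in part to near-identical genes. Gm2830, a processed pseudogene, was at 28.4 and 32.5 CPM in WT_SE and 97.0, 131 and 119.6 CPM in WT_EE, up by 1.93 ± 0.33. 9130208D14Rik, an unprocessed pseudogene and the only lower gene of the 7, was at 243 and 227 CPM in WT_SE and 111, 137 and 156 CPM in WT_EE, a change of -0.78 ± 0.20. In neither did the groups overlap. Without WT_SE_1 all 7 kept their direction and their call, and Sdhd, Gm2830 and Snrpf also an adjusted p under 0.05 (edgeR's quasi-likelihood test, Benjamini-Hochberg).

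**Figure D3:**
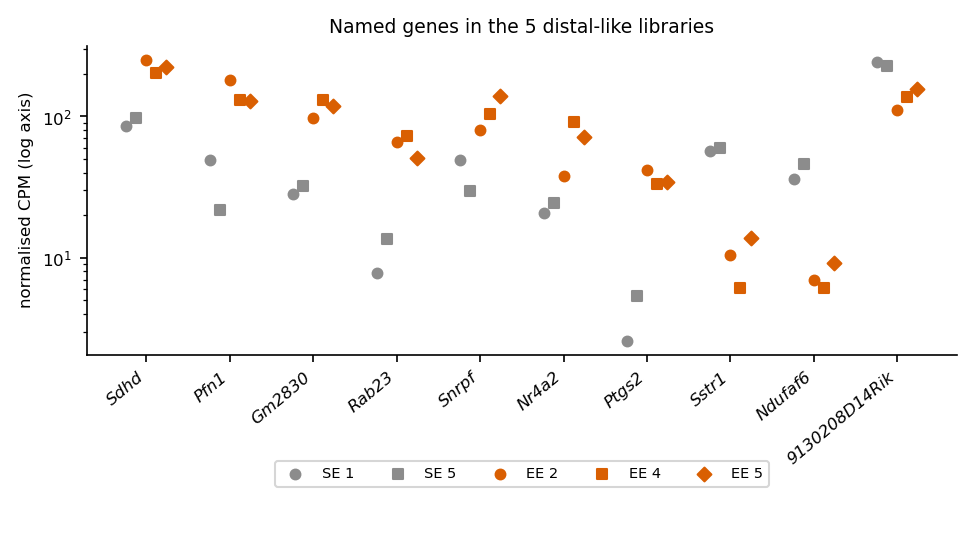
Normalised CPM (vertical axis, log scale) of 10 genes in the 5 distal-like libraries, 1 point per library, grey for WT_SE and orange for WT_EE. The 7 genes at the left lie higher in every WT_EE library, and the 3 at the right lie lower.

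Beyond these 7, Pfn1 (ENSMUSG00000018293, chr11:70651850-70654644), which encodes the actin-binding protein profilin, rose from 49.0 and 21.6 CPM in WT_SE to 180.1, 131 and 129 CPM in WT_EE. The 3 WT_EE levels were all well above both WT_SE levels. Its log2 change was 2.01 ± 0.30 with an adjusted p of 7.36e-08 (edgeR's quasi-likelihood test, Benjamini-Hochberg), against 1.19 ± 0.25 over all libraries. The distal-like value was 2.72 without WT_SE_1 and 1.55 without WT_SE_5. Of the 95 genes past the adjusted limit with edgeR, DESeq2 and limma-voom also placed 6 past it: Sdhd, Pfn1, Nrxn2, Gm2830, Gm26792 and Gm43960. Those 2 tools called 6 and 13 genes in all at that limit.

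A clear lower gene was Sstr1 (ENSMUSG00000035431, chr12:58211772-58214444), a receptor for somatostatin, at 56.8 and 59.5 CPM in WT_SE and 10.4, 6.09 and 13.8 CPM in WT_EE. All 3 WT_EE libraries were far under both WT_SE libraries, and the log2 change was -2.44 ± 0.46 with an adjusted p of 1.01e-04 (edgeR's quasi-likelihood test, Benjamini-Hochberg). Somatostatin itself, Sst, went the other way, from 18.1 and 32.5 CPM to 72.7, 73.1 and 39.1 CPM, a change of 1.24 ± 0.39 at an unadjusted edgeR p of 0.00162 that did not pass adjustment, and without WT_SE_1 it lost its call at 0.88. Ndufaf6, an assembly factor of respiratory complex I, had 14 and 17 counts in WT_SE and 2, 2 and 4 counts in WT_EE, lower in all 3 WT_EE libraries, of which WT_EE_2 and WT_EE_4 were under the floor. Insig1, a brake on sterol synthesis, was at 155 and 67.6 CPM in WT_SE and 58.9, 30.5 and 39.1 CPM in WT_EE. WT_SE_1 was its highest library by far, and the change of -1.40 became -0.68 without it and lost its call.

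Several lower genes shared a second pattern, in which WT_EE_5 lay between the WT_SE libraries and the other WT_EE libraries. Ces2a (ENSMUSG00000055730, chr8:104734003-104741634), a carboxylesterase of the gut and liver, was at 134 and 162 CPM in WT_SE and 10.4, 64.0 and 117 CPM in WT_EE, and as a member of a gene family it may share reads with its relatives. Galnt5, which starts sugar chains on mucins, was at 103 and 64.9 CPM and 27.7, 15.2 and 48.3 CPM. Ttr, the gene of the thyroid hormone carrier transthyretin, was at 38.7 and 40.6 CPM and 3.46, 9.14 and 13.8 CPM. Among these 3, WT_EE_5 was the highest WT_EE library each time, and their log2 changes were -1.09, -1.39 and -2.03. Rpl37rt and Gm10275, both transcribed pseudogenes with uncertain reads, showed the same order of libraries, with -0.79 and -1.10. Without WT_SE_1 all 5 genes were still called. With WT_EE_5 left out, the changes of these 5 genes were larger, the smallest being -1.04 for Rpl37rt. Ces2a fell to -0.67 without WT_EE_2, and with DESeq2 it lost its call at -1.21. Galnt5 fell to -0.71 with libraries chosen by Hoxb13 instead of Slc10a2.

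A few genes were near 0 in some libraries and high in others, and several of these had very small p-values. Gm43960 (ENSMUSG00000108249, chr6:10804828-10809847), a processed pseudogene, had 3 and 3 counts in WT_SE and 494, 441 and 415 counts in WT_EE. That separation was complete in the distal-like libraries, yet in those not kept it had 384 and 5 counts in WT_SE_2 and WT_SE_3, and 471 and 2 counts in WT_EE_1 and WT_EE_3. High and near-0 libraries thus occurred in both environments, 4 of 5 WT_EE and 1 of 4 WT_SE being high. Grip2, a scaffold protein gene of synapses, had 0 and 4 counts in WT_SE and 442, 5 and 357 counts in WT_EE, high in 2 of 3 WT_EE libraries and at 5 counts in WT_EE_4. In the other 4 libraries it had 1 to 29 counts.

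Nrxn2 (ENSMUSG00000033768, chr19:6418731-6544169), a presynaptic adhesion gene, was at 15.5 and 10.8 CPM in WT_SE and 187, 228 and 108 CPM in WT_EE, and at 228 and 20.3 CPM in WT_SE_2 and WT_SE_3 and 162 and 168 CPM in WT_EE_1 and WT_EE_3. Of all 9 libraries only WT_SE_1, WT_SE_3 and WT_SE_5 were low. Gm26792, a long noncoding RNA gene that overlaps Cuedc2, had 0 and 3 counts in WT_SE and 22, 25 and 27 counts in WT_EE, a ratio of 17.8 (95% counting interval 5.84 to 88.0). Among the libraries not kept its order was turned, with 19 and 4 counts in WT_SE and 0 and 0 in WT_EE. Hif3a, a member of the hypoxia-inducible factor family, was at 23.2 and 5.41 CPM and 62.3, 277 and 57.5 CPM, with WT_EE_4 far above the rest. For Gm43960, Grip2, Nrxn2, Gm26792 and Hif3a the interaction of environment and position had adjusted p of 7.19e-96, 4.68e-42, 4.11e-10, 1.59e-15 and 3.63e-15 (edgeR's quasi-likelihood test, Benjamini-Hochberg). Of these 5 only Gm26792 also passed adjustment with filterByExpr and with DESeq2.

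**Figure D4:**
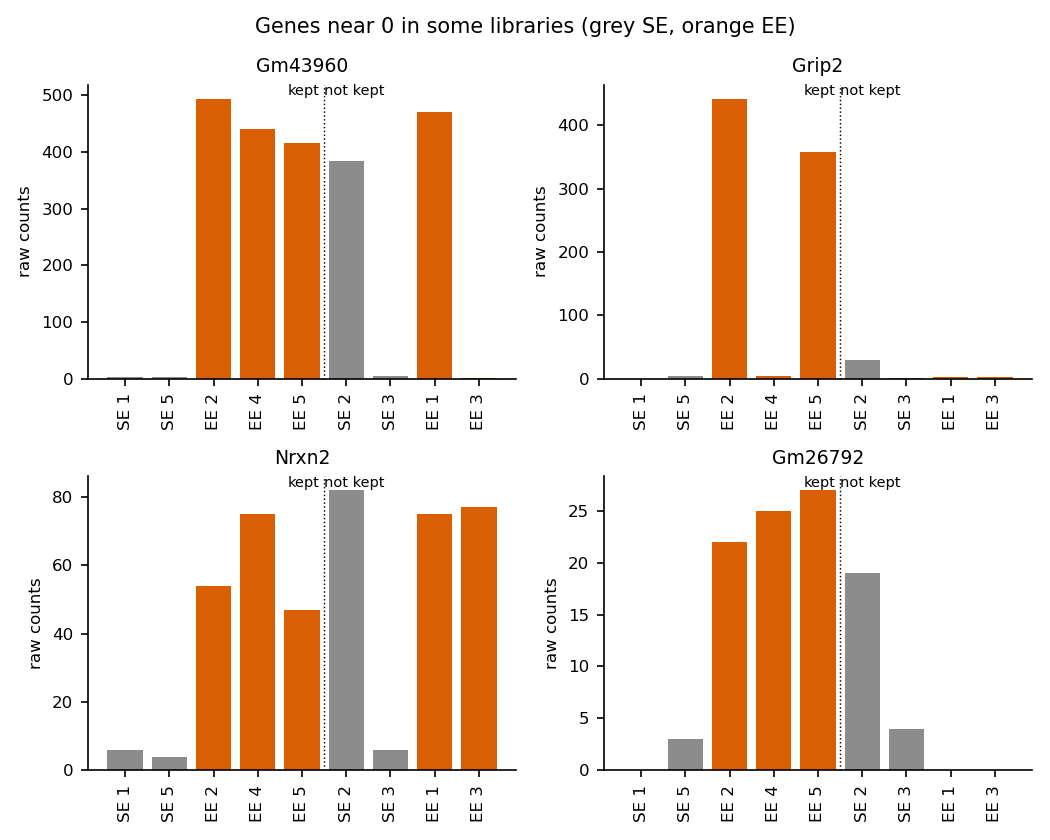
Raw counts of Gm43960, Grip2, Nrxn2 and Gm26792 (vertical axes) in the 9 libraries, grey for WT_SE and orange for WT_EE, with the 5 kept libraries left of the dotted line. Right of the line Gm43960 is high in 1 library of each environment, and Gm26792 is at 0 in both WT_EE libraries.

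Among genes that make prostaglandins, nitric oxide and reactive oxygen, more were called higher than lower. Of 20 genes listed, 5 were higher, 2 lower and 13 not called, against 4.54% higher and 3.47% lower over all genes, with a median log2 change of 0.39 against 0.01 over all genes tested, and with 1 library left out 4 to 7 were higher and 1 to 3 lower. Beside Ptgs2, the list's higher genes were Pla2g4c, Nos2, Nox1 and Duoxa2. All of these but Duoxa2 are among the genes the study itself picked from these same libraries. The list's share of higher genes, here and over all libraries, is therefore a description and no independent evidence of direction. Of the 20 genes, 6 were near 0 in a group. Nos2 and Ptges reached 4 CPM only in the group where they were high, so their calls are a description. Pla2g4c, a phospholipase that frees arachidonic acid, was at 5.16 and 13.5 CPM in WT_SE and 86.6, 256 and 27.6 CPM in WT_EE, widely spread within WT_EE. Its log2 change was 3.64 ± 0.43, and ran from 2.49 without WT_EE_4 to 4.42 without WT_SE_5. Pla2g4c overlaps a pseudogene on the other strand. Nox1, the superoxide-producing oxidase of colon epithelium, rose from 10.3 and 35.2 CPM to 90.0, 73.1 and 59.8 CPM, or 1.68 ± 0.39, and 1.05 without WT_SE_1, and it too overlaps other genes. Duoxa2, the partner needed by the oxidase Duox2, was at 54.2 and 56.8 CPM and 104, 152 and 87.4 CPM, a change of 1.02 ± 0.29. Nos2, the inducible nitric oxide synthase, had only 1 and 0 counts in WT_SE and 3, 9 and 5 in WT_EE, with a ratio of 12.2 and a counting interval of 1.92 to 511, and without WT_EE_4 its call was lost.

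The list also held 2 lower members. Ptges, which makes prostaglandin E from the product of Ptgs2, had 7 and 5 counts in WT_SE and 1, 0 and 0 counts in WT_EE, a ratio of 0.0600 with a counting interval of 0.00140 to 0.405. Pla2g4a, another phospholipase, was at 74.9 and 67.6 CPM and 10.4, 30.5 and 57.5 CPM, a change of -1.01 ± 0.35, with WT_EE_5 near WT_SE, and -0.65 with the call lost without WT_EE_2. Summed over the 20 genes the level was 1033 and 1074 CPM in WT_SE and 1326, 1581 and 1248 CPM in WT_EE, where Duox2 was the most abundant. Every WT_EE sum lay above both WT_SE sums. Over all libraries 7 of the 20 were higher and 1 lower, against 4.31% and 3.34% over all genes. Of 6 neutrophil markers, 4 were absent from the deposited counts and the other 2 were too low to be tested, with a sum of at most 3.05 CPM in any of the 5 libraries.

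Stress and early response genes moved in part. Of 15 heat shock genes 4 were higher, 1 lower and 10 not called, with a median of 0.23. That is 26.7% higher and 6.67% lower against 4.54% and 3.47% over all genes tested. All 4 higher genes, Hspb1, Hspb7, Bag2 and Hspa1b, are among those the study itself picked from these same libraries. Their share is therefore a description and no independent evidence of direction. Hspb1, a small heat shock protein of muscle and epithelium, was at 85.2 and 114 CPM in WT_SE and 163, 207 and 161 CPM in WT_EE, above WT_SE in all 3, with a change of 0.83 ± 0.23. Hspa1b, an inducible chaperone gene whose reads may be shared with its copy Hspa1a, was at 33.6 and 29.8 CPM and 69.3, 76.2 and 87.4 CPM, a change of 1.30 ± 0.36. The lower member was Hspe1, the mitochondrial co-chaperone, at 157 and 162 CPM and 72.7, 88.3 and 129 CPM, and it shares its locus with Hspd1 on the other strand. Among 20 immediate early genes tested, 3 were higher, Nr4a1, Nr4a2 and Egr3, none was lower, and the median was 0.33, or 0.35 with genes near 0 set at their bounds. With 1 library left out, 3 or 4 heat shock genes were higher and 1 lower, but 9 and 3 without WT_EE_5, and 1 to 4 immediate early genes were higher.

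Srf, serum response factor, switches on immediate early and contractile genes by binding the CArG box. It had 4 and 3 counts in WT_SE and 7, 5 and 13 counts in WT_EE, lowest in both WT_SE, with a log2 change of 1.32 ± 0.61 at an unadjusted edgeR p of 0.0302, and of 1.85 ± 0.50 over all libraries. The distal-like call was lost without WT_SE_1, where the log2 value was larger, without WT_SE_5 (1.16) or WT_EE_5 (1.05), and with DESeq2 at a nearly equal value of 1.33 and limma-voom. A promoter stretch of Srf itself carries the box, and the stretch is shown because Srf is the factor that binds this box, with 2 copies in its own promoter. It lies on the minus strand at chr17:46556190-46556269 of GRCm38.p6, from RefSeq, with 2 CArG boxes in capitals that start 82 and 62 bases before the gene.
Srf: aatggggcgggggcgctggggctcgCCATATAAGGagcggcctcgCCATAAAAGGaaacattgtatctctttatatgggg
The CArG box, a 10-base motif, was searched on both strands in the 250 bases before each gene. It was present in 19 of 516 genes called higher that had a promoter sequence (3.68%), 6 of 390 called lower (1.54%), 157 of 11206 tested (1.40%) and 439 of all 27025 genes with a sequence (1.62%). These shares were not tested, a match is not a bound site, and in the smooth muscle list 1 of 10 genes had the box and none of the 5 called higher at an unadjusted p under 0.05 (edgeR).

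The genes that the study itself picked from these same libraries form a list that is no independent evidence of direction. In the distal-like libraries 28 of its 38 genes were higher (73.7%), none lower and 10 not called at an unadjusted p under 0.05 (edgeR). Their median was 1.30. The shares over all genes were 4.54% higher and 3.47% lower there, and 4.31% and 3.34% over all 9 libraries. Over all 9 libraries 34 were higher and 3 lower, with a median of 1.22, and without WT_SE_1 the distal-like count was 23 higher. These 38 leave out names with several mouse counterparts, and with Hspa1a, Agtr1a, Agtr1b, H2-DMb1 and H2-DMb2 added 28 of 43 were higher and 2 lower in the distal-like libraries, and 35 higher and 5 lower over all. Its members include Sdhd, Ptgs2, Nos2, Nox1, Pla2g4c, Srf, Hspb1, Hspb7, Bag2 and Hspa1b from the lists above. Creb5, a transcription factor of the same study list, was at 7.74 and 13.5 CPM in WT_SE and 58.9, 54.8 and 29.9 CPM in WT_EE, a change of 2.10 ± 0.50. Epha2, a receptor tyrosine kinase, had 0 counts in both WT_SE libraries and 2, 2 and 13 counts in WT_EE, which is at least 4.08-fold higher against a floor of 3 counts over the group, and without WT_EE_5 it lost its call.

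Some muscle and nerve genes were called higher, with sums that were high in 2 of 3 WT_EE libraries. Of 13 smooth muscle genes 6 were higher (46.2% against 4.54% over all genes) and 7 not called, with a median of 0.32. Their summed level was 3787 and 4152 CPM in WT_SE and 5658, 5486 and 3939 CPM in WT_EE, so WT_EE_2 and WT_EE_4 were high and WT_EE_5 lay between the WT_SE libraries. The summed mitochondrial transcripts, a sign of RNA quality among other things, were likewise high in WT_EE_2 and WT_EE_4, at 3046 and 2965 CPM in WT_SE and 4048, 3646 and 2715 CPM in WT_EE, and the part of RNA quality was not tested. Acta2, smooth muscle actin, was at 325 and 433 CPM in WT_SE and 661, 639.7 and 455 CPM in WT_EE, a change of 0.62 ± 0.18. Des, the intermediate filament desmin, was at 271 and 281 CPM and 426, 439 and 274 CPM, a change of 0.44 ± 0.19, with WT_EE_5 inside the WT_SE range, and without WT_EE_2 (0.35), WT_EE_4 (0.32) or WT_SE_5 (0.46) its call was lost. Without WT_SE_1 no gene of the 13 was called at an unadjusted p under 0.05 (edgeR), without WT_SE_5, WT_EE_2 or WT_EE_4 1 or 2 were, and without WT_EE_5 11 were. Mylk was the most abundant of the list and none of the 13 was at 0. In whole pieces, more cells of a type and more RNA per cell cannot be told apart, and the part of muscle content in other results was not tested.

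Enteric neuron genes followed the same libraries. Of 13, 5 were higher (Prph, Snap25, Uchl1, Nos1, Ret), 1 lower (Vip) and 7 not called, which is 38.5% and 7.69% against 4.54% and 3.47% over all genes, with a median of 0.72. The sums were 457 and 498 CPM in WT_SE and 772, 734 and 423 CPM in WT_EE, where WT_EE_5 was the lowest of all 5 libraries and Stmn2 the most abundant gene. Nos1, the neuronal nitric oxide synthase, was at 59.4 and 37.9 CPM and 90.0, 97.5 and 59.8 CPM, up by 0.72 ± 0.32, with the call lost without WT_EE_2 (0.65), WT_EE_4 (0.58) or WT_SE_5 (0.43). Vip, a neuropeptide that relaxes muscle, was at 56.8 and 70.3 CPM and 27.7, 24.4 and 43.7 CPM, a change of -0.94 ± 0.36, with the call lost without WT_EE_4 (-0.78) or WT_SE_5 (-0.79). Without WT_SE_1, WT_EE_2 or WT_EE_4 the neuron list had 1 higher gene, without WT_SE_5 4 and without WT_EE_5 8, and at most 1 was lower. The part of these cells in the other results was not tested.

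Fat cell and B-cell follicle genes had their highest sums in WT_SE_1. Of 10 fat cell genes 7 were lower (70.0% against 3.47% over all genes) and none higher, with a median of -1.35, or -1.24 with genes near 0 set at their bounds. The sums were 1469 and 159.6 CPM in WT_SE and 644, 411 and 198 CPM in WT_EE, led by Fabp4, with WT_SE_5 the lowest and WT_SE_1 the highest of the 5. Cfd, the fat cell protease adipsin, was at 235 and 0 CPM in WT_SE and 72.7, 48.7 and 0 CPM in WT_EE, which is 0 in WT_SE_5 and in WT_EE_5. Without WT_SE_1 the direction turned, and 4 of 9 fat genes tested were higher and none lower, so the sign of the fat genes rests on WT_SE_1. With any other library left out 5 to 9 were lower. The part of fat in other results was not tested. B-cell follicle genes summed to 114 and 24.3 CPM in WT_SE and 10.4, 0 and 23.0 CPM in WT_EE. Of 7 tested 3 were lower (42.9%), Cxcl13, Ms4a1 and Cr2, with a median of -2.45, or -2.35 with bounds, and without WT_SE_1 none of 3 tested was called at an unadjusted p under 0.05 (edgeR) and the sign of Ms4a1 turned. With any other library left out 1 to 3 were lower. Against the 42.9% stood 3.47% lower over all genes. Follicle genes not tested without WT_SE_1 reached 4 CPM in no other of the 5 libraries. Their direction and the list's median are thus set in part by the filter and are a description. Cr2, complement receptor 2 of B cells and follicular dendritic cells, had 8 and 3 counts in WT_SE and 0 in all 3 WT_EE libraries, at least 5.10-fold lower. The part of follicles in other results was not tested.

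The calls of interferon response genes depended on the libraries compared. Over all libraries 8 of 17 were lower, against 3.34% over all genes, and none higher, with a median of -0.33. In the distal-like libraries 2 were lower (11.8% against 3.47% over all genes), Usp18 and Ifit2, with a median of -0.20. Sums were 2762 and 1453 CPM in WT_SE and 1956, 1368 and 2187 CPM in WT_EE, with WT_SE_1 highest, WT_EE_5 next and the groups overlapping. Ifit2 was at 77.4 and 16.2 CPM and 10.4, 9.14 and 52.9 CPM. Usp18, which restrains interferon signalling, was at 80.0 and 18.9 CPM and 13.9, 6.09 and 43.7 CPM. Without WT_SE_1 none of the 17 was lower and 3 were higher, with Usp18 turned to 0.28 and Ifit2 to 0.70, whereas 7 were lower without WT_EE_5 and 11 without WT_SE_5. Leaving out WT_EE_4 also ended the calls of Ifit2 (-0.44) and Usp18 (-0.68), and leaving out WT_EE_2 that of Ifit2 (-0.50). For Irf7, a transcription factor of the response, the log2 fold change was -0.33 ± 0.16 over all libraries and -0.30 ± 0.20 in the distal-like ones, and the unadjusted interaction p was 0.886 (edgeR), so a difference between positions was not shown. The value over all libraries turned to 0.0106 with the library-name ending as covariate and to 0.0237 without WT_SE_1 and WT_SE_3.

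Antigen presentation genes of MHC class II gave 3 lower of 8, Ciita, H2-DMb1 and H2-DMb2, and none higher, or 37.5% against 3.47% over all genes, with a median of -0.48. Ciita, their master regulator, was at 15.5 and 64.9 CPM in WT_SE and 17.3, 9.14 and 6.90 CPM in WT_EE, with WT_SE_5 alone high, and without that library its log2 value was -0.55 with no call and that of H2-DMb1 turned to 1.07. Without WT_SE_5 1 of the 8 was lower and 3 were higher, and with any other library left out 2 to 4 were lower and none higher. Sums of the list ran from 413 and 1106 CPM in WT_SE to 911, 389.9 and 602 CPM in WT_EE, led by H2-Ab1, and the groups overlapped. The other immune lists gave little: 1 of 10 macrophage genes, Lyz2, was lower, though not without WT_SE_1 or WT_EE_4, and none of 8 T-cell or 4 plasma-cell genes was called at an unadjusted p under 0.05 (edgeR). None of the 8 endothelial genes was called either. With 1 library left out, at most 1 gene of each of these 4 lists was called.

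**Figure D5:**
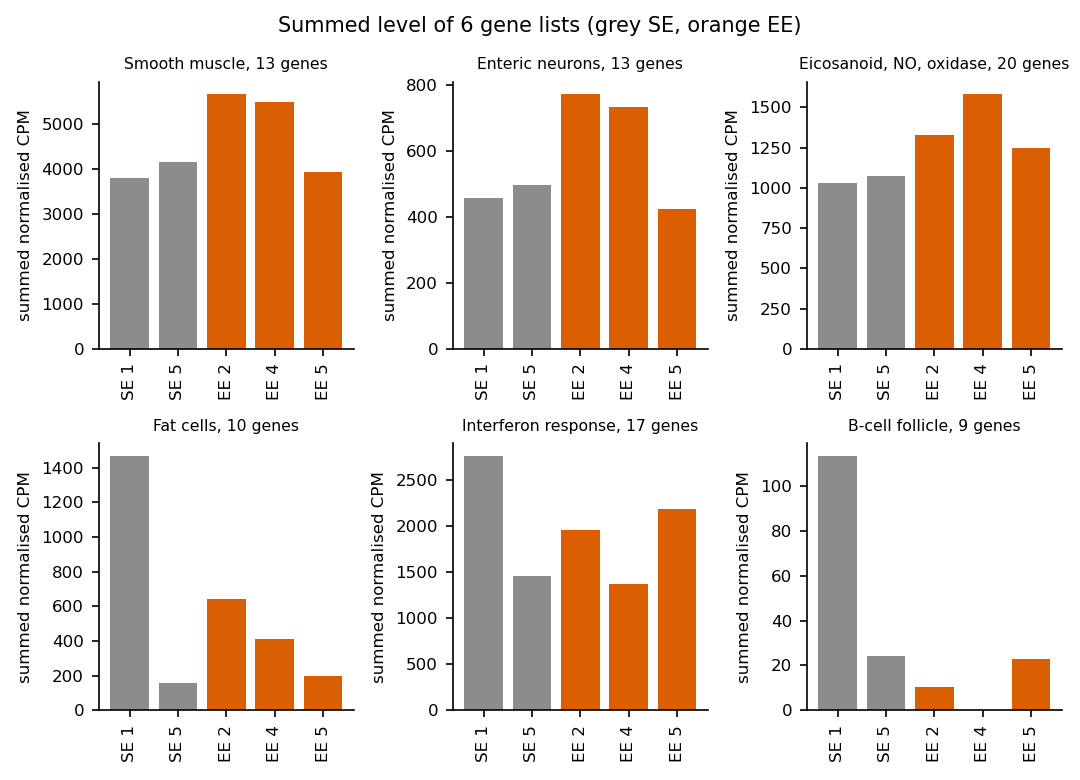
Summed normalised CPM (vertical axes, from 0) of 6 gene lists in the 5 distal-like libraries, grey for WT_SE and orange for WT_EE. WT_EE_5 (EE 5) is low for muscle and neurons, WT_SE_1 (SE 1) is high for fat, interferon and B-cell follicle genes, and the eicosanoid, nitric oxide and oxidase list is the one of the 6 in which every orange bar exceeds both grey bars.

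Of 10 secreted antibacterial genes of the epithelium 2 were higher, against 4.54% over all genes, Ang4 and Itln1, none lower and 8 not called, with a median of 0.21. With 1 library left out 2 were higher, but 4 higher and 1 lower without WT_EE_5. Ang4, an antibacterial ribonuclease, was at 38.7 and 208 CPM in WT_SE and 301, 448 and 258 CPM in WT_EE. WT_SE_1 was far below the other 4, among which WT_SE_5 was still the lowest. The change of 1.44 ± 0.21 became 0.68 without WT_SE_1, and its standard error does not reflect the wide gap between the WT_SE libraries. Among the libraries not kept Ang4 stood at 66.8 and 10.1 CPM in WT_SE and 23.7 and 249 CPM in WT_EE, with WT_EE_3 alone high. Itln1, a lectin that binds microbial sugars, was at 0 and 24.3 CPM and 41.6, 73.1 and 27.6 CPM, a change of 1.93 ± 0.49, and 0.92 without WT_SE_1 with the call lost. Mptx1, a pentraxin of colon epithelium, was at 18.1 and 489.6 CPM and 564, 755 and 315 CPM, so that its fitted change of 1.10 rests on WT_SE_1 and was 0.14 without it.

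Transport, metabolism and goblet cell genes are given as counts of calls, and no list was tested as a whole. Of 16 ion and water transport genes tested 2 were higher, Atp12a and Kcnma1, and 1 lower, Cftr, which is 12.5% and 6.25% against 4.54% and 3.47% over all genes, and with 1 library left out 1 to 4 were higher and 0 to 2 lower at an unadjusted p under 0.05 (edgeR). Cftr, the chloride channel of crypts, was at 261 and 203 CPM in WT_SE and 93.5, 137 and 191 CPM in WT_EE, a change of -0.68 ± 0.20, lowest in WT_EE_2. Atp12a, the colonic proton and potassium pump, was at 2.58 and 13.5 CPM and 86.6, 42.6 and 4.60 CPM, with WT_EE_5 within the WT_SE range. Cpt1a, the entry step of fatty acid oxidation, was at 256 and 203 CPM and 114, 140.1 and 179 CPM, a change of -0.64 ± 0.20, and its list of 14 had 1 higher (7.14%) and 2 lower genes (14.3%), but no call without WT_SE_1 at an unadjusted p under 0.05 (edgeR). Goblet cell genes gave 2 higher of 10, Clca1 and Fcgbp, with a median of 0.14. Without WT_SE_1 or WT_EE_4 none of the 10 was called at an unadjusted p under 0.05 (edgeR), and without WT_EE_5 4 were higher and 2 lower.

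Of 18 clock genes 1 was higher, Arntl, and 2 lower, Per1 and Per3, with a median of -0.18. These shares of 5.56% and 11.1% stand against 4.54% and 3.47% over all genes, the higher one being near its background, and with 1 library left out 0 to 2 were higher and 0 to 3 lower at an unadjusted p under 0.05 (edgeR). Per3 was at 77.4 and 103 CPM in WT_SE and 72.7, 42.6 and 23.0 CPM in WT_EE, a change of -1.04 ± 0.32, with the call lost without WT_SE_5 (-0.83). Arntl, an activator in the clock loop, was at 10.3 and 27.0 CPM and 41.6, 33.5 and 64.4 CPM, a change of 1.35 ± 0.44. WT_EE_5 had the lowest Per3 and the highest Arntl. Arntl lost its call without WT_SE_1. Among 8 mitochondrial transcripts 2 were higher: mt-Atp6 had 2 and 1 counts in WT_SE and 13, 7 and 15 in WT_EE, with a ratio of 8.40 (counting interval 2.65 to 42.7), and mt-Co3 gave 11.9 (interval 3.04 to 102). These 2 genes overlap on the same strand, and the other 6 were not called, though without WT_EE_5 7 of the 8 were higher. Enteroendocrine genes went both ways, with Sst and Scg2 higher and Nts, Chgb and Tph1 lower of 12, against 4.54% and 3.47% over all genes. Without WT_SE_1 1 was higher and 1 lower, Nts turned in sign with 1 count left in WT_SE and Tph1 stood at 0.04, and with any other library left out 2 were higher and 1 to 5 lower. Chgb, a granule protein gene, was at 196 and 208 CPM and 72.7, 107 and 184 CPM, a change of -0.67 ± 0.21, with WT_EE_5 near WT_SE.

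The remaining lists held few calls. None of 6 posterior Hox genes tested was called in the distal-like libraries at an unadjusted p under 0.05 (edgeR). Over all libraries 2 were higher, Hoxa10 and Hoxa11, and 1 lower, Hoxd11, against 4.31% and 3.34% over all genes. With 1 library left out at most 1 was higher and at most 1 lower. Hoxa10 was at 163 and 179 CPM in WT_SE and 235, 241 and 191 CPM in WT_EE, and its log2 fold change was 0.37 ± 0.20 there and 0.64 ± 0.24 over all 9. Of 16 more anterior Hox genes 1 was higher (6.25%) and 3 lower (18.8%), and without WT_SE_1 2 were higher and none lower. Cell cycle genes gave 1 higher of 17, crypt and Wnt genes 1 of 11, junction genes 1 higher and 1 lower of 17, unfolded protein genes 1 of 12 and hypoxia and glycolysis genes 1 of 12. Of 7 fibroblast and 3 pacemaker cell genes 1 each was higher, of 3 mesothelial genes 1 was lower, and of 10 glucocorticoid targets 1 was higher and 2 lower. In lists this short 1 call is 5.88 to 33.3% of the genes, against 4.54% and 3.47% over all genes. Without WT_EE_5, 4 of the 7 fibroblast genes and 3 of the 12 hypoxia and glycolysis genes were higher and 3 of the 17 cell cycle genes lower. None of 4 skeletal muscle or 2 mast cell genes tested was called at an unadjusted p under 0.05 (edgeR).

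Of the differences that vanished, 10 genes with a distal-like p over 0.5 are given here. Tc2n, a C2-domain protein gene, had a log2 fold change of 0.60 ± 0.27 over all 9 libraries and 0.04 ± 0.32 in the distal-like ones, at 46.5 and 73.0 CPM in WT_SE and 55.4, 57.9 and 69.0 CPM in WT_EE. Outside them it stood at 47.3 and 16.9 CPM in WT_SE_2 and WT_SE_3, and 86.4 and 83.1 CPM in WT_EE_1 and WT_EE_3. Fastkd1, a mitochondrial RNA-binding protein gene, stood at 0.93 ± 0.33 over all libraries and 0.26 ± 0.43 in the distal-like ones. Brox, Tnfrsf21 and Slc31a2 were likewise higher over all libraries, by 0.63, 0.38 and 0.67, and stood at 0.03, 0.13 and 0.08 in the distal-like ones.

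On the lower side, Knl1, a kinetochore scaffold gene of dividing cells, had a log2 fold change of -0.80 ± 0.32 over all libraries and 0.05 ± 0.38 in the distal-like ones, at 43.9 and 37.9 CPM in WT_SE and 38.1, 30.5 and 55.2 CPM in WT_EE with overlapping groups. Tjp1, the tight junction protein ZO-1, had -0.54 ± 0.22 over all libraries and -0.14 ± 0.28 in the distal-like ones. Tmigd1, an adhesion molecule of enterocytes, had -0.35 ± 0.15 and -0.06 ± 0.20, and Prss23 and the pseudogene Gm6477 had -0.49 and -0.78 over all libraries against -0.06 and -0.12. None of these 10 genes had an interaction adjusted p under 0.05 (edgeR's quasi-likelihood test, Benjamini-Hochberg), the smallest being 0.180 for Knl1.

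For some genes the interaction of environment and position passed adjustment with edgeR, although the 32 such genes became 4 with filterByExpr and 1 with DESeq2. Without WT_SE_1 and WT_SE_3, that is within 1 library-name ending and with 1 WT_SE library for each position, 28 passed, 19 of them among the 32. Retnlb, a goblet cell protein that acts on bacteria, was at 312 and 354 CPM in WT_SE and 398, 493 and 343 CPM in WT_EE in the distal-like pieces, with overlapping groups. In the other pieces it was at 58.5 and 3.38 CPM in WT_SE and 233 and 247 CPM in WT_EE, and the interaction was -2.54 ± 0.34 with an adjusted p of 1.87e-10 (edgeR's quasi-likelihood test, Benjamini-Hochberg). Aqp8, a water channel of surface colonocytes, behaved alike, at 209 and 298 CPM and 370.5, 338 and 232 CPM in distal-like pieces and 47.3 and 6.76 CPM and 147 and 149 CPM outside them, with an interaction of -2.06 ± 0.37. In both genes WT_SE_3 was the lowest of the 9 libraries, and Retnlb also passed adjustment with filterByExpr and without WT_SE_1 and WT_SE_3, while Aqp8 did so in no alternative. Ces2a, lower in the distal-like fit, had -0.33 over all libraries without a call, and its interaction was -1.44 ± 0.34 with an adjusted p of 0.0148 in the same test, which it did not pass in any alternative.

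The 4 libraries not kept share none with the 5 kept and give a separate comparison of 2 WT_SE and 2 WT_EE. There 7.89% of 16464 genes were called. Of the 1288 distal-like calls that could be tested in them, 171 (13.3%) were called with the same sign and 32 with the opposite sign, while 1085 were not called. Of the 94 genes past the adjusted limit that could be tested, 28 were called with the same sign and 7 with the opposite sign. Sdhd was at 153 and 16.9 CPM in WT_SE and 218 and 166 CPM in WT_EE in these libraries, where WT_SE_3 was lowest. Nr4a2 was at 16.7 and 13.5 CPM in WT_SE and 43.2 and 65.6 CPM in WT_EE, without overlap. WT_SE_1 and WT_SE_3 carry the same library-name ending, 1 in each comparison. With both left out, 733 genes were called in the distal-like libraries and tested in the others, and 41 were called there with the same sign against 37 with the opposite sign. Within 1 library-name ending, same and opposite signs were thus nearly as frequent among shared calls.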

How the data were processed

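3′ RNA-seq counts of colon pieces were taken as deposited: the authors counted unique molecules per gene. Per the submitters' processing notes, reads were trimmed with fastp 0.20.0, aligned with STAR 2.7.0f to GRCm38.p6, counted with featureCounts 1.6.0 of Subread and collapsed with UMI-tools. Gene names and positions are from GENCODE release M21. Libraries with at most 30 counts of Slc10a2 were compared (2 WT_SE, 3 WT_EE), and all 9 and the other 4 in the same way. A gene was tested if any library of the comparison reached 4 CPM (counts scaled to a common library size). Genes near 0 in a whole group, such as Nos2, Ptges, Epha2 and Cr2, were thus tested through the other group only. Their calls are a description. Tests used edgeR 4.0.16 (TMM, quasi-likelihood), with Benjamini-Hochberg adjustment over all genes tested, in R 4.3.3. DESeq2 1.42.0, limma 3.58.1 (voom), other filters and scalings, left-out libraries and a second way to choose the libraries were tried as alternatives. Tables and figures used Python 3.11.15, pandas 2.3.3, numpy 2.4.6, scipy 1.17.1 and matplotlib 3.10.9.

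Named genes were, among those with a mean of at least 20 CPM, 10 higher and 10 lower ones of lowest p whose groups did not overlap, 5 higher and 5 lower ones called over all libraries with a distal-like p over 0.5, and 3 of each sign with the lowest interaction p; also, at any mean, up to 10 past the adjusted limit in either fit, called members and the most abundant gene of each list, and the posterior Hox genes. The members and the lists were chosen with earlier results of these data known. Promoter sequences are from RefSeq.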

Additional observations from a re-analysis of the deposited data

Results flagged for a closer look

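In a group of 4 or 5 libraries, 3 of 50 groups tested held a library far from the rest, and chance alone marks about 1 in 20 groups. Prss23 stood at 250.3 CPM in WT_SE_3, Bst2 at 57.8 CPM in WT_EE_5 and 9130208D14Rik at 389 CPM in WT_SE_3.

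For 18 of the named genes the interaction of environment with position had an adjusted p under 0.05 (edgeR's quasi-likelihood test, Benjamini-Hochberg). The share over all genes was 0.183%. With DESeq2 only Gm26792 also passed adjustment, and with filterByExpr only Gm26792 and Retnlb. Adipoq, Cfd, Car3, Mptx1, Ces2a and Hoxb13 had no unadjusted DESeq2 call. Hoxb13 and Insl5 mark position themselves, so place of cutting and environment cannot be told apart in their differences. Some genes were named for their low interaction p, so the count of 18 is partly set by that choice. The log2 difference, distal-like minus proximal-like, was positive for Gm26792 (10.76), Grip2 (9.85), Gm43960 (7.46), Hif3a (5.48), Nrxn2 (3.32), Abi2 (2.72) and Spint2 (1.23). It was negative for Hoxb13 (-5.99), Sval1 (-4.34), Insl5 (-3.51), Cfd (-3.45), Adipoq (-3.28), Mptx1 (-2.96), Ciita (-2.76), Retnlb (-2.54), Aqp8 (-2.06), Car3 (-1.99) and Ces2a (-1.44). WT_SE_1 and WT_SE_3, the libraries with the other name ending, are in different groups of pieces here. With both left out, Adipoq and Cfd had no call, Car3 turned to 0.32, and the other 15 kept their direction and an unadjusted p under 0.05. Gm26792, Grip2, Gm43960, Hoxb13, Sval1 and Insl5 each have a group in which every library is at or under 3 counts, so only the direction of their differences is read.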

How the results depend on the processing

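These alternatives were chosen after seeing the data: libraries chosen by Hoxb13 (15 or more counts, WT_SE_5 against 4 WT_EE), the library-name ending as covariate, WT_SE_1 and WT_SE_3 left out together, and left-out libraries in the proximal-like comparison. Among 80 named genes called in the distal-like libraries, 717 of 845 values kept direction and call, 117 kept direction only and 11 turned. With 1 library left out, the figures were 307, 81 and 12 of 400. Over all libraries, 18 genes gave 181, 46 and 4 of 231, and 121, 41 and 0 of 162.

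The 1302 distal-like calls became 791 with filterByExpr, 393 with DESeq2, 630 with libraries chosen by Hoxb13 and 481 at p under 0.01, and 738 (without WT_SE_1) to 2148 (without WT_EE_5) with 1 library left out, 809 without WT_EE_4. The 95 past adjustment became 17 with 4 CPM asked of every library, 10 with filterByExpr, 6 with DESeq2, 13 with limma-voom and 3 with Hoxb13, and 27 (without WT_SE_1) to 473 (without WT_EE_5), 30 without WT_EE_4. Where 1 WT_SE library was left, it is assumed to vary like the WT_EE libraries.

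The 1334 calls over all libraries became 804 with filterByExpr, 643 with DESeq2, 688 with the ending as covariate, 680 without WT_SE_1 and WT_SE_3 and 410 at p under 0.01, and 899 to 1581 with 1 library left out. The 7 past adjustment became 143 without a filter, 19 without immunoglobulin genes, 187 with position as covariate, 0 to 48 with 1 library left out, and 0 with 4 CPM in every library, filterByExpr, DESeq2, limma-voom, the ending as covariate or without WT_SE_1 and WT_SE_3. With upper-quartile scaling 615 were higher and 753 lower (45.0% higher) against 751 and 583 (56.3%). With a replicate block 70 passed, but replicate numbers pair no animals, and in the distal-like libraries only number 5 occurs in both groups, so that no paired analysis was possible.

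Proximal-like calls were 261 with DESeq2 and 451 to 1940 with 1 library left out, and past adjustment 8 with filterByExpr, 2 with DESeq2 and 0 to 29. Interaction calls were 671 with filterByExpr, 270 with DESeq2 and 905 without WT_SE_1 and WT_SE_3, and past adjustment 4, 1 and 28. The 644 held genes became 383 with filterByExpr, 228 with DESeq2 and 302 (without WT_SE_1) to 789, with 390 without WT_EE_4.

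Without WT_SE_1 and with libraries chosen by Hoxb13, log2 values turned to 5.52 and 6.49 for Adipoq, 6.73 and 7.67 for Cfd, 2.89 and 3.33 for Car3, 0.09 and 1.18 for Plin1, 2.37 and 4.28 for Nts, 0.28 and 0.0018 for Usp18, 0.70 and 0.55 for Ifit2, 0.35 and 1.21 for Hoxb8, 2.66 and 2.79 for Ms4a1, 0.57 and 1.78 for Slc51a, and 0.0433 and 0.58 for Tph1. In both settings WT_SE_5 alone is left, with 0 counts of Adipoq, Cfd and Ms4a1 and 1 of Plin1 and Nts, so only the direction of these 5 is read. H2-DMb1 turned to 1.07 without WT_SE_5. Over all libraries, with the ending as covariate and without WT_SE_1 and WT_SE_3, values turned to 0.55 and 0.57 for Bst2 and 0.0106 and 0.0237 for Irf7. With 1 library left out, values ran from -3.52 to 5.52 for Adipoq, -2.69 to 6.73 for Cfd, -1.95 to 2.89 for Car3, -4.39 to 0.0859 for Plin1, -3.31 to 2.37 for Nts, -2.32 to 0.28 for Usp18, -2.24 to 0.70 for Ifit2, -1.52 to 1.07 for H2-DMb1, -1.89 to 0.35 for Hoxb8, -5.07 to 2.66 for Ms4a1, -1.48 to 0.57 for Slc51a and -1.15 to 0.0433 for Tph1. The cause was not tested.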
